A study of Mus musculus with 6 samples.

Results

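The genes described here are 42 genes of glycolysis, gluconeogenesis and glycogen metabolism and their regulators, taken by name from a list of genes that was drawn up with earlier results of these data known. Of these, 40 had a row among the 21115 probe sets of the array, found through the gene number that names each probe set, and Gapdh and Pgam1 were not analysed here. Primary hepatocytes of C57BL/6 mice were plated on collagen in medium with serum and the glucocorticoid dexamethasone and then kept without serum. A later change of medium left out dexamethasone. The cells came from 3 mice, and for 24 hours they were left as controls (3 samples) or given recombinant BMP2 at 50 ng/ml (3 samples). BMP2 is a bone morphogenetic protein, a growth factor whose receptors activate SMAD proteins, and the title of the study ties it to iron balance in the liver. The age and sex of the mice are not stated in the labels. The labels name no transgene or deletion in either group, and they do not say whether the control cells received the acid in which BMP2 was dissolved. They also do not state which medium was used during the 24 hours with or without BMP2. The levels are log2 expression values, and every difference is BMP2 minus control on that scale.

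The liver takes up glucose after a meal, stores it as glycogen or passes it down glycolysis, and releases glucose in fasting from glycogen and by gluconeogenesis. Glycolysis and gluconeogenesis share most of their enzymes and part at a few steps where separate enzymes run in opposite directions. At one of these fructose bisphosphatase (Fbp1) opposes phosphofructokinase (Pfkl, Pfkm, Pfkp), and at another pyruvate carboxylase (Pcx) and phosphoenolpyruvate carboxykinase (Pck1, Pck2) oppose pyruvate kinase (Pklr in hepatocytes). Insulin, glucagon, glucocorticoids and glucose itself set the transcription of many of these genes in the liver.

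The 6 arrays had medians between 6.80 and 6.81 and values from 6.35 to 14.02. Replicate 3 stood apart from the other replicates in both groups on the second principal component (21.5% of the variance). The hepatocyte markers Alb, Tf, Apoa1, Apob, Fgb, Ttr and Serpina1a had mean levels above 12, whereas Ass1 (8.18), Tat (7.49) and Cps1 (6.94), enzymes of the urea cycle and of tyrosine breakdown, lay lower over all samples. Of the markers of other cells, 8 of 9 endothelial, 8 of 9 macrophage, 6 of 8 stellate and all 6 measured blood cell genes had mean levels under 7, near the floor of the array. The mean of 6 cholangiocyte markers lay between 8.56 and 8.64 in control and between 8.44 and 8.53 in BMP2 samples, with Epcam, Krt7 and Cftr near the floor and Spp1, Sox9 and Krt19 above it. These means cover opposite differences, of -0.51 ± 0.08 (SE) for Krt19, -0.55 ± 0.12 for Spp1 and 0.46 ± 0.10 for Sox9, each in all 3 pairs and without overlap. Acta2, the stellate cell marker at the highest level, differed by -0.49 ± 0.13 in the same way. The mean of the 10 hepatocyte markers lay between 11.20 and 11.29 in control and between 11.34 and 11.48 in BMP2 samples, and that of the stellate cell markers between 6.91 and 6.98 and between 6.85 and 6.91. Of the 48 measured markers 0 passed the threshold used below in limma, 8 had an unadjusted p under 0.05, and 2 passed with the replicate block (Ttr and Sox9). The part of these markers in the results was not tested. In such bulk samples fewer cells of a type and less RNA per cell cannot be told apart.

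With BMP2, 1 of the 40 measured genes fell and 1 rose. G6pc3, the glucose phosphatase subunit found in most tissues, fell by 0.14, and Irs1, a docking protein of the insulin receptor, rose by 0.19. Irs1 lay under 7 in all samples, near the floor of the array, and may not be measured above background. Each of the 2 calls passed in 1 of the 6 fits with 1 sample left out. The samples were also compared by replicate number, which was taken to stand for the mouse. This gave 5 other genes past the threshold: Fbp1, Ldha and Gbe1 higher and Pklr and Pfkm lower. The largest difference of any measured member was that of Pklr, the liver pyruvate kinase, at -0.68, and the next that of Fbp1 at 0.39. A gene was taken as past the threshold when its limma p, adjusted by Benjamini and Hochberg over all 21115 probe sets, lay under 0.05. Of all probe sets 1.19% passed, 0.616% higher and 0.573% lower, beside 2 of the 40 genes (5.0%). With the replicate number as a block 3.32% of all probe sets passed, 1.68% higher and 1.64% lower, beside 5 of the 40 (12.5%). Of the genes called without the block 0 passed with it, although G6pc3 (0.057) and Irs1 (0.074) lay near the threshold in the blocked limma fit. With the replicate number as a random block G6pc3 (0.016), Irs1 (0.025), Pklr (0.049) and Pfkm (0.048) passed, and Fbp1 (0.18), Ldha (0.079) and Gbe1 (0.48) did not.

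The 40 genes had a median difference of 0.01 and a median absolute difference of 0.05, beside 0.0007 and 0.01 over all probe sets. A mean level under 7 was found for 15 of the 40 (37.5%), beside 57.9% of all probe sets. The other 25 genes had a median absolute difference of 0.07, beside 0.05 over the 8879 probe sets at or above that level, and 1 of the 25 passed (4.0%, beside 2.52%). With the block 5 of the 25 passed (20.0%, beside 7.46%). The 3 BMP2 samples lay wholly above or below the 3 controls for 11 of the 40 genes (27.5%), beside 16.7% of all probe sets. The 3 pairs of equal replicate number moved in 1 direction for 22 of the 40 genes, 15 upwards and 7 downwards. Of all probe sets 36.8% did so, 4034 upwards and 3726 downwards. At or above a level of 7 it was 13 of 25 genes (52.0%), 7 upwards and 6 downwards. The probe sets at that level gave 50.6%, 2508 upwards and 1986 downwards. At or above a level of 7 the groups did not overlap for 6 of 25 genes (24.0%), beside 25.5% of the probe sets at that level.

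**Figure D1:**
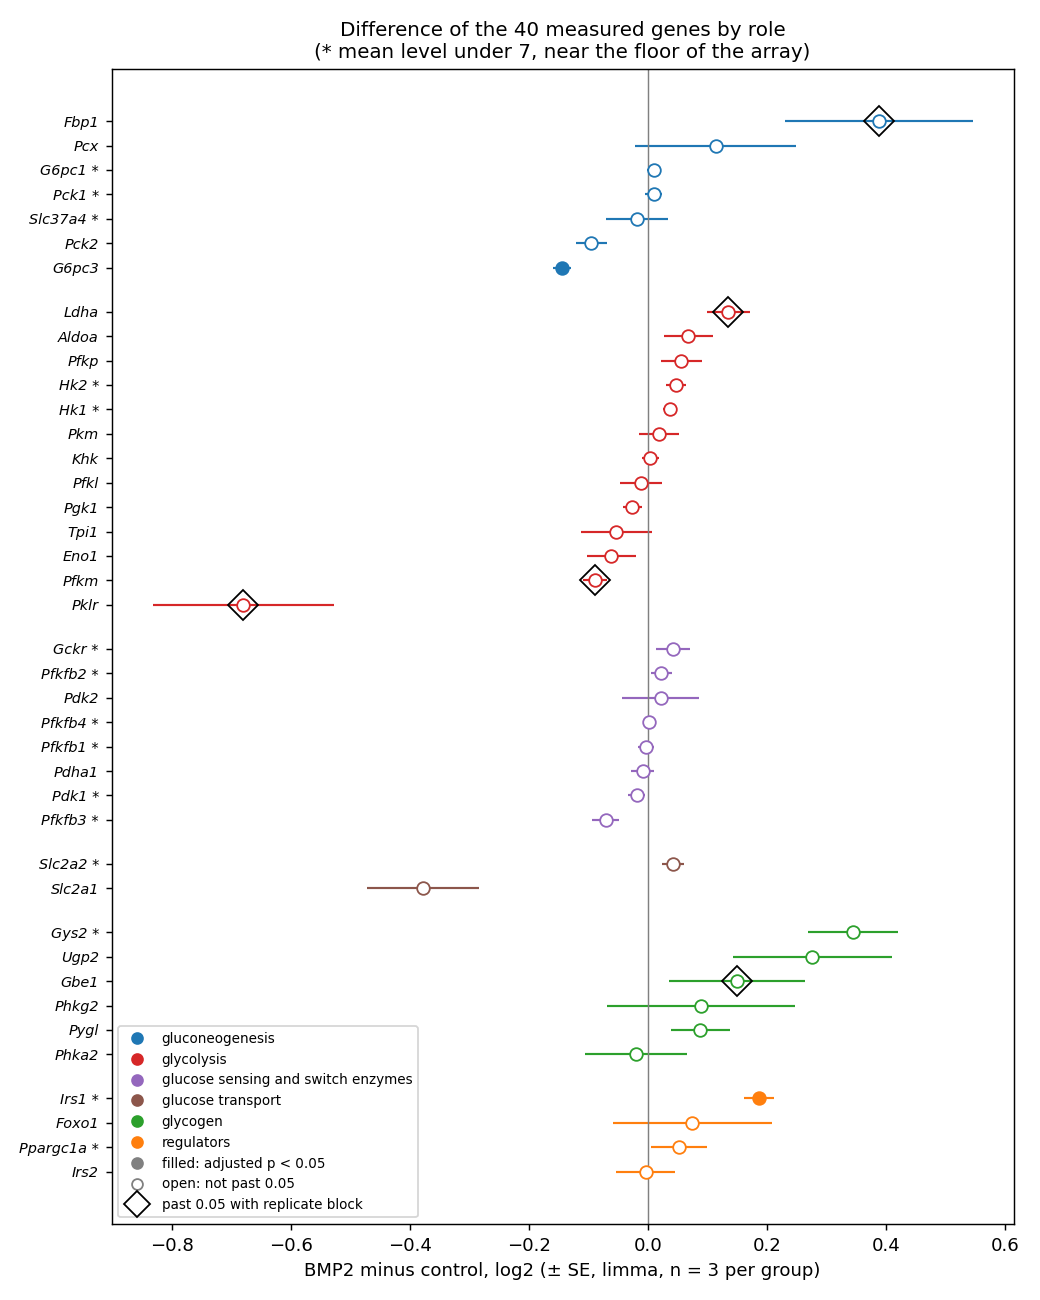
Difference between BMP2 and control samples (log2, x axis) of the 40 measured genes, with bars for 1 limma SE on each side (n = 3 per group) and genes grouped and coloured by role. Filled points passed the threshold without the block (G6pc3 and Irs1), diamonds mark the 5 genes past it with the replicate block, and stars mark the 15 genes with a mean level under 7.

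Among the 7 genes of gluconeogenesis 1 fell, 0 rose and 6 did not pass, with a median difference of 0.01. G6pc3 measured 9.81, 9.80 and 9.81 in control replicates 1 to 3 and 9.64, 9.69 and 9.65 in the BMP2 samples. All BMP2 samples lay below all controls, and the spread within each group was small. The fall of 0.14 (SE 0.02, limma adjusted p = 0.033) is a 1.11-fold decrease. The call was lost with an intensity trend in the variance prior (adjusted p = 0.23) and among probe sets with a mean of at least 8 (0.065), and among the fits with 1 sample left out it passed in 1 of 6, that without BMP2 replicate 2 (highest adjusted p 0.14, without control replicate 2).

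Fbp1, which removes a phosphate from fructose bisphosphate and is a controlled step of gluconeogenesis, measured 9.95, 10.11 and 9.69 in control and 10.32, 10.52 and 10.07 in BMP2 samples. The groups overlapped, because the level of BMP2 replicate 3 was below that of control replicate 2, yet each BMP2 sample exceeded the control of its own replicate number by a similar amount (0.37, 0.41 and 0.38). The difference of 0.39 ± 0.16 (SE), 1.31-fold, had a limma adjusted p of 0.42 without the block, 0.014 with it and 0.18 with a random block. Levels of Fbp1 thus differed more between the replicates of a group than the differences within the pairs did between each other. The SD was 0.21 in control and 0.23 in BMP2 samples (n = 3 each).

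The other genes of this group did not pass. Pck2, the mitochondrial phosphoenolpyruvate carboxykinase, measured 8.04, 8.10 and 8.01 in control and 7.93, 7.97 and 7.96 in BMP2 samples, without overlap (-0.10 ± 0.03, limma adjusted p = 0.23). Pcx, which makes oxaloacetate from pyruvate, was lowest in replicate 3 of both groups (8.87 and 9.09) and differed by 0.11 ± 0.14 (adjusted p = 0.89). The genes best known as hormone targets in gluconeogenesis lay near the floor. Pck1, the cytosolic phosphoenolpyruvate carboxykinase, measured 6.77, 6.75 and 6.73 in control and 6.77, 6.74 and 6.76 in BMP2 samples. G6pc1, the liver catalytic subunit that releases glucose, measured 6.51, 6.53 and 6.51 in control and 6.51, 6.53 and 6.54 in BMP2 samples. Slc37a4, the transporter that feeds it, had group means of 6.97 and 6.96. Their differences lay between -0.02 and 0.01, and at such levels a small difference does not show that a gene was unchanged.

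Of the 13 measured genes of glycolysis 0 passed without the block in limma (5 had an unadjusted p under 0.05), and 1 was higher and 2 lower with it. Their median difference was 0.004. Pklr, which makes pyruvate in the last step of liver glycolysis, measured 12.40, 12.26 and 11.96 in control and 11.74, 11.48 and 11.35 in BMP2 samples. The groups did not overlap, and within the pairs the level was lower by a similar amount (-0.65, -0.78 and -0.61). The difference of -0.68 ± 0.15 (SE), a 1.60-fold lower level, had a limma adjusted p of 0.15 without the block and 0.024 with it. It also passed with an intensity trend (0.043), and among probe sets with a mean of at least 7 (0.045) or 8 (0.034). With 1 sample left out and no block it passed in 0 of 6 fits (adjusted p between 0.14 and 0.38).

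Fbp1 and Pklr act in opposite directions at separate steps, and their promoters are shown because these genes had the largest differences of the members. The RefSeq sequences of mouse build GRCm38.p6 cover the 250 bases before the start of the gene. That of Fbp1 is chr13:62888283-62888532 on the minus strand. That of Pklr is chr3:89136373-89136622 on the plus strand, before the downstream of its 2 listed starts. As background, the upstream start of this gene serves red blood cells and the downstream one the liver. Capitals mark matches to the motifs named below.
Fbp1: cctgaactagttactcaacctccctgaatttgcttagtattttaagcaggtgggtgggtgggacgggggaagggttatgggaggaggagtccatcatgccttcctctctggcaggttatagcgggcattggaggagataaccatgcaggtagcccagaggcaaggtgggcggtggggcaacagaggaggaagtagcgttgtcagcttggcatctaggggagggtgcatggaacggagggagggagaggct
Pklr: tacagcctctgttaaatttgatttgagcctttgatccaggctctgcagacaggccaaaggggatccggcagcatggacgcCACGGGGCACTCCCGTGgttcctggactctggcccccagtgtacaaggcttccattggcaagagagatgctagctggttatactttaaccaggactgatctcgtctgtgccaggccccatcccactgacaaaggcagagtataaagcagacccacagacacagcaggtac

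The capitals in the Pklr promoter start 170 bases before the start and match CACGGGNNNNNCCCGTG, a pair of imperfect E-boxes. This is the carbohydrate response element known from the liver pyruvate kinase gene, to which the glucose-sensing factor ChREBP, encoded by Mlxipl, binds. In these letters, read on both strands, the motif was found in 1 of 32851 windows of 250 bases before RefSeq starts (0.00304%), that of Pklr. The letters outside the N are those of the Pklr element itself, so this match was fixed in advance. Other forms of the element were not searched, so the count does not set Pklr apart from other genes. Other motifs were searched on both strands in the same windows. The BMP response core GGCGCC was found in 9.59% of all windows and in 10 of 62 windows of the members (16.1%). The 62 windows belong to 39 genes, some with several starts whose windows can overlap. The E-box CACGTG was found in 6.02% and in 10 of 62 (16.1%). The FOXO core TGTTTAC (3.17% of all windows) and the HNF4 motif CAAAGTCCA (0.384%) were found in 0 of the 62. None of the 4 motifs lies in the Fbp1 or Pklr window, and a match or its lack says nothing on the binding of a factor in these cells.

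Pfkm, the muscle-type phosphofructokinase, measured 7.52, 7.48 and 7.54 in control and 7.43, 7.40 and 7.44 in BMP2 samples, without overlap. Its difference of -0.09 ± 0.02 had a limma adjusted p of 0.14, and 0.042 with the block, and 0.107 when an intensity trend was added to the block. Ldha, the lactate dehydrogenase subunit that favours lactate formation, measured 12.02, 11.998 and 12.08 in control and 12.13, 12.14 and 12.23 in BMP2 samples. These groups did not overlap either, and the difference of 0.13 ± 0.04 had an adjusted p of 0.22, and 0.045 with the block, and 0.079 with a random block. These are a 1.06-fold lower and a 1.10-fold higher level. The calls of Pfkm, Ldha and Fbp1 thus rest on the comparison within pairs of equal replicate number.

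The remaining glycolytic genes differed by at most 0.07 in either direction. Eno1 (enolase, mean levels 12.74 and 12.68 in control and BMP2 samples), Tpi1 (triosephosphate isomerase, 12.48 and 12.43) and Aldoa (aldolase A, 11.90 and 11.97) had high levels and limma adjusted p between 0.66 and 0.88. The liver phosphofructokinase Pfkl (-0.01 ± 0.04), the platelet form Pfkp (0.06 ± 0.04), the phosphoglycerate kinase Pgk1 (-0.03 ± 0.02), the non-hepatic pyruvate kinase Pkm (0.02 ± 0.03) and the fructose kinase Khk (0.004 ± 0.01) did not pass. Their mean levels lay between 7.04 (Pfkp) and 7.52 (Pkm), not far above the floor, which limits what these small differences show. The hexokinases of other tissues lay near the floor, with Hk1 at 6.77 and 6.80 and Hk2 at 6.89 and 6.94 in control and BMP2 samples.

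**Figure D2:**
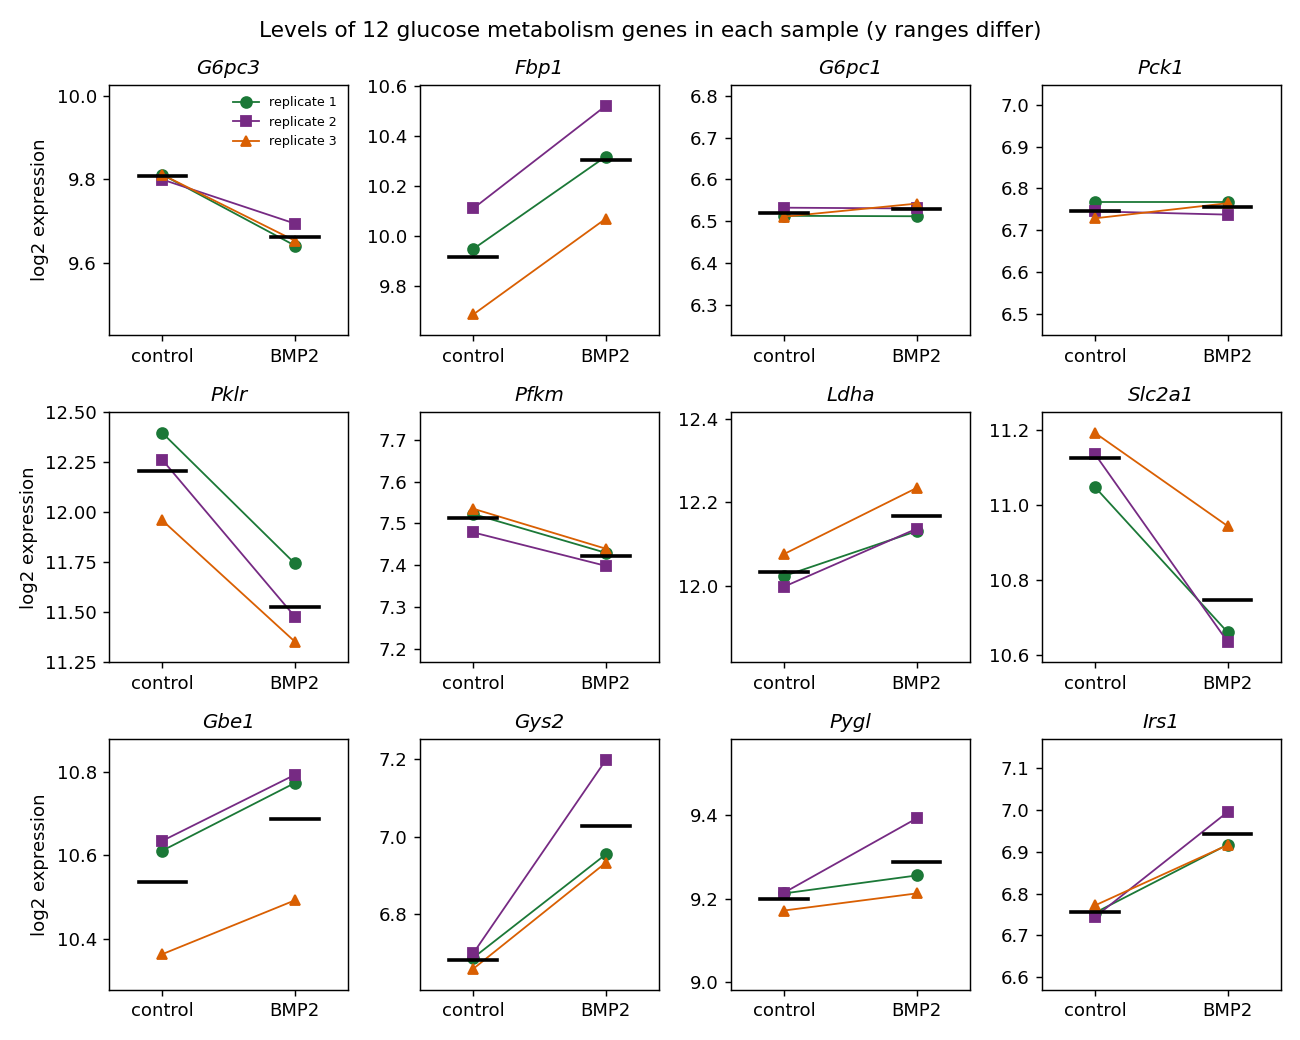
Log2 expression (y axis, with a range of its own in each panel) of 12 genes in control and BMP2 samples, with lines joining samples of equal replicate number and black bars for the group means (n = 3). The lines of Fbp1, Pklr and Gbe1 run nearly parallel while replicate 3 lies lowest in both groups, and G6pc1 and Pck1 lie near the floor of the array.

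Of the 2 glucose transporters 0 passed in limma with or without the block, and 1 had an unadjusted p under 0.05. Slc2a1, the transporter GLUT1 of most tissues, measured 11.05, 11.14 and 11.19 in control and 10.66, 10.64 and 10.95 in BMP2 samples. All BMP2 samples lay below the controls, with BMP2 replicate 3 closest to them. The difference of -0.38 ± 0.09 (SE, 1.30-fold lower) had a limma adjusted p of 0.18, and of 0.079 with the block. With 1 sample left out it passed in 1 of 6 fits, that without BMP2 replicate 3 (0.045), and the highest adjusted p was 0.42. Slc2a2, the transporter GLUT2 that hepatocytes use in the liver, lay near the floor in this table (6.84 and 6.89) and differed by 0.04 ± 0.02.

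Of the 6 genes of glycogen metabolism 5 lay above 0 and 0 passed in limma without the block (1 had an unadjusted p under 0.05), while 1 passed with it. Their median difference was 0.12. Gys2, the liver glycogen synthase, measured 6.69, 6.70 and 6.66 in control and 6.95, 7.20 and 6.93 in BMP2 samples. Every BMP2 sample lay above all controls, with BMP2 replicate 2 the highest, but all values except that one were under 7, near the floor, so no fold is given. The difference of 0.34 ± 0.08 (SE) had a limma adjusted p of 0.14 and 0.097 with the block. It passed with an intensity trend (0.039). With 1 sample left out it passed in 1 of 6 fits, that without BMP2 replicate 2 (0.037), where the difference was 0.26. The highest adjusted p of these 6 fits was 0.34.

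Gbe1, the branching enzyme, measured 10.61, 10.63 and 10.36 in control and 10.77, 10.79 and 10.49 in BMP2 samples. The groups overlapped because replicate 3 was low in both, and the pairs differed by 0.16, 0.16 and 0.13. The difference of 0.15 ± 0.11 (SE) had a limma adjusted p of 0.77 without the block and 0.031 with it, and 0.48 with a random block and 0.078 when an intensity trend was added to the block. Ugp2, which makes the glucose donor UDP-glucose, measured 9.89, 9.96 and 9.95 in control and 10.33, 10.39 and 9.91 in BMP2 samples. Replicates 1 and 2 were higher with BMP2 by 0.44 and 0.43 and replicate 3 was not (-0.04). Its difference of 0.28 ± 0.13 had a limma adjusted p of 0.52, and without BMP2 replicate 3 it was 0.42 with an adjusted p of 0.029. Of the 6 fits with 1 sample left out it passed in this 1 alone, and the highest adjusted p was 0.79.

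The 3 members that act in glycogen breakdown did not pass. Pygl, the liver glycogen phosphorylase, measured 9.21, 9.21 and 9.17 in control and 9.26, 9.39 and 9.21 in BMP2 samples, which overlapped at the lowest BMP2 value (0.09 ± 0.05, limma adjusted p = 0.62). The subunits of phosphorylase kinase, Phka2 (-0.02 ± 0.09) and Phkg2 (0.09 ± 0.16), did not pass, and Phkg2 was highest in replicate 3 of both groups (8.62 and 8.79).

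Of the 8 genes that sense glucose or switch the direction of flux 0 passed in limma with or without the block, 1 had an unadjusted p under 0.05, and 6 lay near the floor. These 6 were Gckr, a nuclear inhibitor of glucose phosphorylation, Pdk1, a kinase that inactivates pyruvate dehydrogenase, and Pfkfb1, Pfkfb2, Pfkfb3 and Pfkfb4, the bifunctional enzymes that make or remove the allosteric activator of phosphofructokinase. Pfkfb3 had the largest difference of them (-0.07 ± 0.02, limma adjusted p = 0.29), with all BMP2 samples (6.67, 6.69 and 6.74) below all controls (6.75, 6.79 and 6.77). Pdha1, a subunit of pyruvate dehydrogenase, lay well above the floor at 10.63 and 10.62 in control and BMP2 samples (-0.01 ± 0.02). Pdk2, another of its kinases, stood at 7.72 and 7.74.

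Among the 4 regulators 1 rose. Irs1 measured 6.75, 6.74 and 6.77 in control and 6.92, 6.995 and 6.92 in BMP2 samples, and all BMP2 samples exceeded all controls. The rise of 0.19 (SE 0.02) had a limma adjusted p of 0.049. All 6 values lay under 7, near the floor, so no fold is given and the gene may not be measured above background. The call was lost with median centring of the arrays (adjusted p = 0.063), and with 1 sample left out it passed in 1 of 6 fits, that without BMP2 replicate 2 (highest adjusted p 0.19, without control replicate 2). Irs2, the other docking protein, stood at 7.17 in both groups (difference -0.004 ± 0.05). Foxo1, a transcription factor that insulin keeps out of the nucleus, was highest in replicate 3 of both groups (8.48 and 8.66) and differed by 0.07 ± 0.13. Ppargc1a, a coactivator of gluconeogenic transcription in fasting, lay near the floor (6.78 and 6.83).

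The promoters of the genes called without the block, G6pc3 and Irs1, each held the E-box CACGTG, shown in capitals. It was also found for Irs2, Khk, Ldha, Pcx, Pdk2, Pfkfb2, Pfkfb3 and Pfkm, which were not called without the block. Over all windows it was found in 6.02%, and over the 62 windows of the members in 16.1%. A match thus does not set the called genes apart, and it says nothing on binding. The G6pc3 window is chr11:102189449-102189698 on the plus strand with matches starting 99 and 79 bases before the start, and the Irs1 window is chr1:82291440-82291689 on the minus strand with 1 match at 115 bases. The other motifs were not found in these windows.
G6pc3: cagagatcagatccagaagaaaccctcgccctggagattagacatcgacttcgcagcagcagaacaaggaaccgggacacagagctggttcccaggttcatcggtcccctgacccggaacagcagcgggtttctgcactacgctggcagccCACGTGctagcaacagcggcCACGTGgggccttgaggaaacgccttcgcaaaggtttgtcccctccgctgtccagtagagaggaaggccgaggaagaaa
Irs1: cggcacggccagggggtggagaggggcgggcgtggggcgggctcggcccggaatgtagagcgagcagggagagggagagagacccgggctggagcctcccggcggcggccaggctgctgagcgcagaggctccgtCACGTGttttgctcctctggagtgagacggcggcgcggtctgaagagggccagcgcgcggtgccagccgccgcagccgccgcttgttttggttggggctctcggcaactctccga

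The levels of many of these genes differed between the replicate numbers in the same way in both groups. Replicate 3 was the lowest of its group in both groups for 10 of the 40 genes and the highest in both for 14. Together this is 60.0%, beside 30.2% of all probe sets. At or above a level of 7 it was 68.0% of 25 genes, beside 42.6% of the probe sets. The genes with the lowest replicate 3 included Fbp1, Pcx, Pklr, Gbe1 and Pygl, and those with the highest included Ldha, Slc2a1, Phkg2 and Foxo1. Ugp2 was not among them, since its control replicate 3 (9.95) lay between the other controls. Whether replicate 3 differed by animal or by preparation was not tested.

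**Figure D3:**
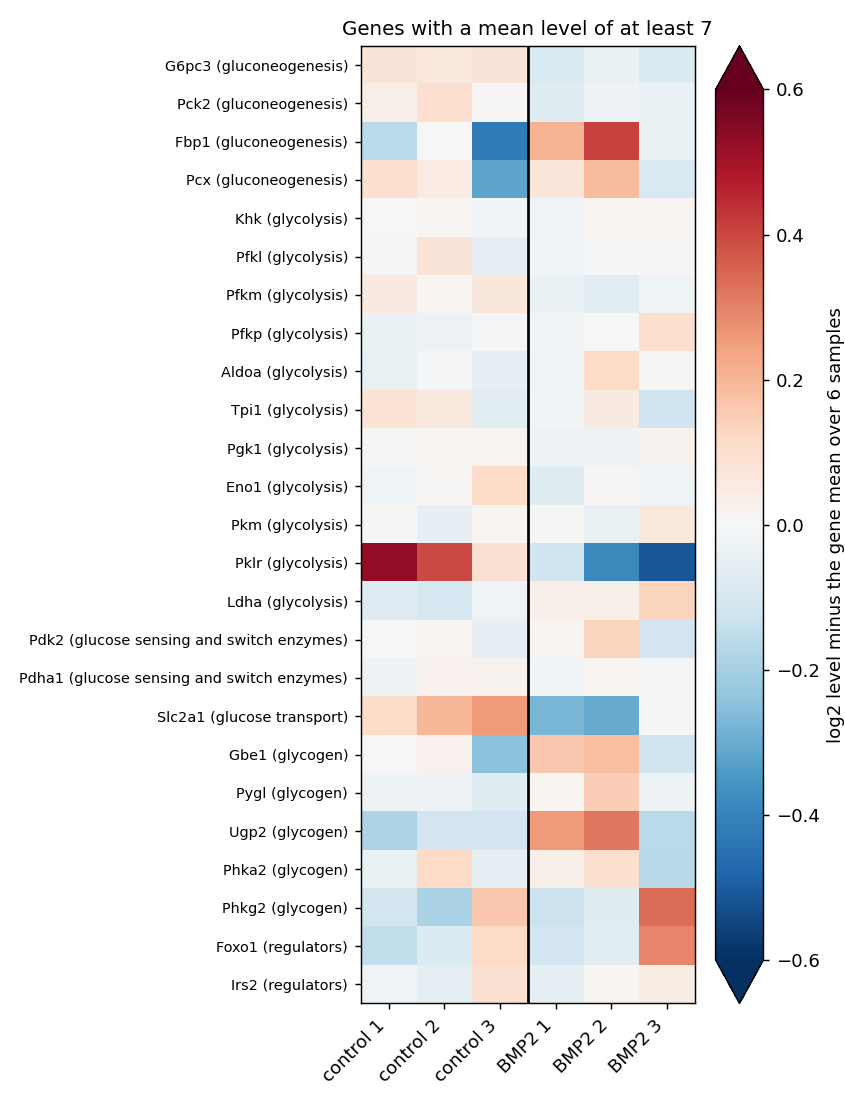
Log2 level of the 25 genes with a mean level of at least 7 in each of the 6 samples (columns), as the difference from the mean of the gene over all samples (colour, saturating at ±0.6), ordered by role. Pklr and Slc2a1 are lower and Fbp1 higher in each BMP2 sample than in the control of equal replicate number. Phkg2 and Foxo1 are highest in replicate 3 of both groups.

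Of 104 other genes of the pathway 102 had a row. In limma 4 rose, 1 fell and 97 did not pass, with a median difference of 0.01. These 5 are 4.9% of the genes, beside 1.19% of all probe sets and 2.52% of those at or above a level of 7. With the block 7 were higher and 1 lower, together 7.84%, and these 8 included all 5 called without it. Beside this, 3.32% of all probe sets passed with the block, and 7.46% of those at or above a level of 7. A mean level under 7 was found for 28.4% of the 102 genes, beside 57.9% of all probe sets. The 4.9% and 7.84% include these genes, so they are not a like comparison with the shares at or above a level of 7. The differences ran from -0.31 to 1.28, and those of the 40 genes above from -0.68 to 0.39. The increases concerned aldose reductase, the glycerol phosphate step and pyruvate dehydrogenase phosphatase, beside the transcription factor gene Hnf4a.

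Akr1b3, the aldose reductase that turns glucose into sorbitol, measured 10.44, 10.43 and 10.40 in control and 11.78, 11.69 and 11.64 in BMP2 samples. Each BMP2 sample stood far above every control. The rise of 1.28 ± 0.04 (SE, 2.43-fold, limma adjusted p = 0.0015) passed with any 1 sample left out. Gaa, the lysosomal enzyme that degrades glycogen, was the gene that fell, from 10.09, 10.04 and 10.06 in control to 9.77, 9.78 and 9.73 in BMP2 samples. Its fall of 0.31 (SE 0.02, limma adjusted p = 0.0077, 1.24-fold) passed with any 1 sample left out.

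Gpd1, the cytosolic glycerol phosphate dehydrogenase that links glycerol and glycolysis, measured 9.53, 9.71 and 9.62 in control and 10.45, 10.88 and 10.68 in BMP2 samples. It rose by 1.05 ± 0.12 (SE, 2.07-fold, limma adjusted p = 0.035) and passed in 0 of the 6 fits with 1 sample left out (adjusted p between 0.052 without BMP2 replicate 1 and 0.135 without control replicate 2). Pdp1, which reactivates pyruvate dehydrogenase, measured 8.03, 7.98 and 8.02 in control and 8.32, 8.30 and 8.22 in BMP2 samples. It rose by 0.27 ± 0.03 (SE, limma adjusted p = 0.036), did not pass with quantile normalization repeated (0.054) and passed without 1 sample only for BMP2 replicate 3. Hnf4a, a nuclear receptor that drives many liver genes, gluconeogenic ones among them, rose by 0.82 ± 0.06 (SE, limma adjusted p = 0.0097) and did not pass without BMP2 replicate 1 (0.067) or control replicate 2 (0.065).

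A further 3 genes passed with the block and not in the main limma comparison. Igfbp1, which insulin represses in liver, had a difference of 0.95 ± 0.22 (adjusted p = 0.15, and 0.037 with the block), and without a block it passed with an intensity trend (0.049). Gpt2, the mitochondrial alanine aminotransferase, differed by 0.42 ± 0.11 (0.22, and 0.048 with the block). Mlxipl, which encodes ChREBP, measured 8.06, 8.04 and 8.19 in control and 8.22, 8.23 and 8.31 in BMP2 samples, a difference of 0.15 ± 0.05 (0.27, and 0.048 with the block).

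**Figure D4:**
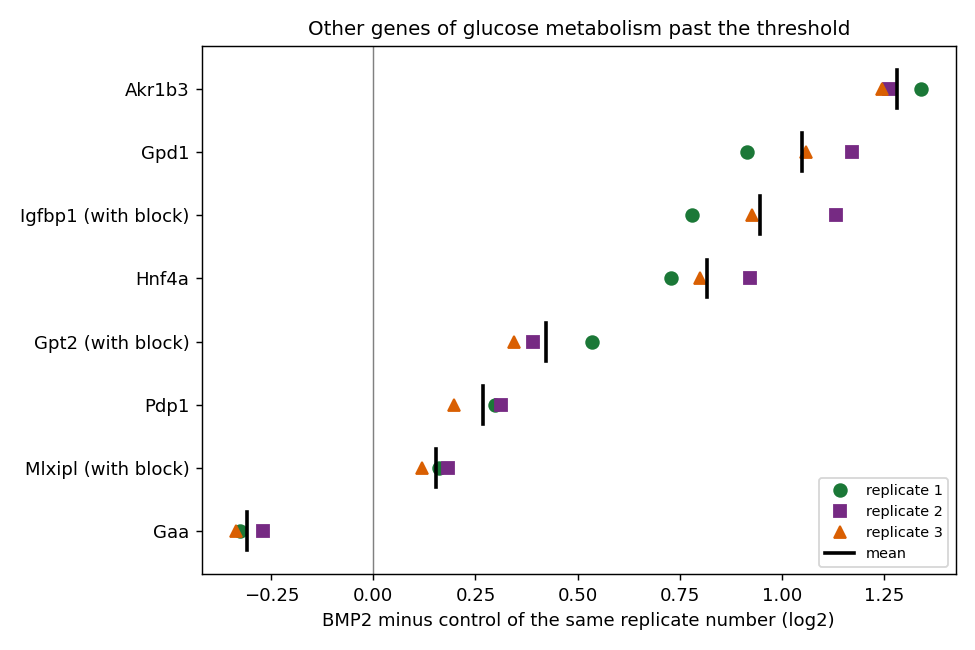
Difference between the BMP2 and the control sample of equal replicate number (log2, x axis) for the 8 other genes past the threshold with or without the block, with 1 symbol per replicate and a black bar for the mean. All 3 pairs lie above 0 for 7 genes and below 0 for Gaa, and the label (with block) marks those past the threshold with the block and not in the main comparison, Igfbp1, Gpt2 and Mlxipl.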

How the data were processed

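Gene expression was measured with an Affymetrix array in 3 control and 3 BMP2 samples of primary mouse hepatocytes. The authors deposited log2 values that they made with RMA (robust multi-array averaging), per the submitters' processing notes, and these were tested as deposited. Its version and settings are not stated in the sources used here. An array holds no counts, so precision rests on 3 samples per group.

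Of 21115 probe sets 20405 were named by the platform annotation, each numbered by its Entrez gene. Of the other 710 the RefSeq gene table (GRCm38.p6) named 527 by that number, among them Eno1, Pfkfb1 and 8 other pathway genes.

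The BMP2 effect was fitted with lmFit and eBayes of limma 3.58.1 (R 4.3.3, default prior, two-sided). The fit was also tested on data simulated with normal noise, as the method assumes. That does not show how reliable the calls in these samples are. P-values were adjusted by Benjamini-Hochberg across all probe sets. Replicate numbers were taken to pair the samples: samples of equal number deviated together from their group means (correlations of 0.48, 0.58 and 0.61), and the design names 3 mice. The fit without the block was the main test.

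The members, the other lists and the motifs were chosen with earlier results of these data known. All members are named. Values in every sample are given for members past the threshold with or without the block, for members whose groups do not overlap with a difference of at least 0.3, and for Pck1, G6pc1, Fbp1, Pklr, Gys2 and Pygl, and those of Pck2, Ugp2 and Pfkfb3 were added after they were seen. Other pathway genes were named when past the threshold in either fit. A few genes of the other lists are not reported here.

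The settings tried beside it were a replicate block, fixed or random, an intensity trend with or without robust estimation, filters at means of 7 and 8, quantile normalization, median centring, array weights and leaving out each sample. The block with an intensity trend, and fits without both samples that share a number, were added after the data were seen.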

Additional observations from a re-analysis of the deposited data

How the results depend on the processing

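The counts depended on the setting. The differences could move only in part of the settings, since a block, an intensity trend or a filter leaves them as they are in this balanced design. Against 2 of the 40 genes past the threshold (1 higher, 1 lower), 5 of the other pathway genes and 251 probe sets past the threshold, the replicate block gave 5 (3 higher, 2 lower), 8 and 702, the random replicate block 4 (3 lower), 8 and 700, and the block with an intensity trend 6 (4 higher, 2 lower), 15 and 1278. An intensity trend alone gave 2 members higher, 9 other pathway genes and 438 probe sets, with robust estimation 2, 9 and 468. A mean of at least 7 gave 0 members higher and 2 lower, 9 other genes and 443 probe sets, and a mean of at least 8 gave 1 member past the threshold, 0 higher, and 9 other genes. Median centring gave 1 member past the threshold and 0 higher, and array weights 403 probe sets. With 1 sample left out there were 0 to 3 members past the threshold (0 to 2 higher, 0 to 1 lower), 2 to 7 other pathway genes and 30 to 223 probe sets, the lowest count of probe sets without control replicate 2. Without both samples of replicate number 1, 2 or 3 there were 0 members past the threshold, higher or lower, in each case. There were 1, 0 and 3 other pathway genes and 9, 2 and 114 probe sets in these fits, which hold fewer samples.

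Over 19 alternatives the 40 genes gave 721 differences, of which 13, in 8 genes, changed sign, leaving aside differences under 0.005, and 0 of these passed. Part of the 721 could not change sign, because a block, an intensity trend or a filter leaves the difference as it is. With 1 sample left out the difference ran from -0.067 to 0.012 for Slc37a4 (above 0 without BMP2 replicate 1, 0.0094, and control replicate 3), from -0.016 (without control replicate 3) to 0.191 for Pcx, from -0.042 to 0.024 (without control replicate 2) for Pfkl, from -0.040 (without BMP2 replicate 2) to 0.083 for Pdk2, and from -0.074 to 0.058 for Phka2 (above 0 without BMP2 replicate 3 and control replicate 2, 0.035). It ran from -0.0090 to 0.045 for Pkm, from -0.056 to 0.192 for Phkg2 and from -0.053 to 0.152 for Foxo1, below 0 without BMP2 replicate 3. Without both samples of a number it changed sign for Pfkl (0.028) and Pdk2 (-0.027) with number 2 and for Phka2 (0.027) with number 3. The causes were not tested. The replicate block changed the call of 7 members, named in the report, and of 3 other pathway genes. Genes near the floor carry little signal over background, which limits what their small differences show.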
